A study of Mus musculus with 9 samples.

Results

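The genes described are 10 targets of the glucocorticoid receptor, *Fkbp5*, *Zbtb16*, *Tsc22d3*, *Fam107a*, *Map3k6*, *Hif3a*, *Sgk1*, *Cdkn1a*, *Lcn2* and *Mt2*, out of 22180 genes with their own symbol on the array. The list was chosen by strain differences on these same 9 arrays, so its differences in expression and their p-values are a description and no independent test. Of the 41345 probesets, 11 carry these symbols. *Fam107a* has 2 and was read from the one with the higher mean over all arrays, and the other 9 genes have 1 each. Lungs came from naïve, untreated mice of 3 inbred strains kept in a pathogen free facility, with 3 mice and 3 arrays per strain. C57BL/6J is the hyporesponsive parent. CSS12 is C57BL/6J with its Chromosome 12 replaced by that of A/J, and BcA86 is a recombinant congenic strain, mostly C57BL/6J with A/J segments on several chromosomes, Chromosome 12 among them. Both are hyperresponsive to methacholine, and the arrays were run to find genes whose lung expression distinguishes them from C57BL/6J. The methods give 1 age range for all animals, that of young adults, while the sex of each mouse and the hour at which its lungs were taken were not stated in any source used. Each strain is a single inbred line, so a strain difference cannot be told apart from a difference between the colonies. None of the 10 genes lies on Chromosome 12 in RefSeq, and whether any lies in another A/J segment of BcA86 was not analysed here.

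The glucocorticoid receptor is a nuclear receptor held in the cytoplasm by heat shock protein 90 and its co-chaperones. When it binds corticosterone, the glucocorticoid of mice, it moves to the nucleus and acts on genes that carry its response elements. In lung it acts in epithelium, endothelium and leukocytes, where it induces genes such as *Fkbp5* and *Tsc22d3* and represses inflammatory ones, which is the basis of inhaled steroid treatment in asthma. Corticosterone varies through the day and rises with stress.

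The element the receptor recognises is a palindrome, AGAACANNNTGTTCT, made of a pair of 6-base elements, TGTTCT, facing each other across 3 bases. Promoter windows of the 250 bases before each start site were read from RefSeq (GRCm38.p6) for 9 of the 10 genes, all but *Zbtb16*, and searched on both strands. Of their 19 windows, 6 held the 6-base element, in 3 genes. These were 3 of the 6 windows of *Sgk1*, which has several start sites, 2 windows of *Fam107a* that share 248 of their 250 bases, and 1 of *Tsc22d3*, so the windows are not independent. Over all 32851 windows of the same length, 16.1% held it. The full palindrome was in 3 of the 32851 windows, or 0.00913%, and 1 of these belonged to *Sgk1*. For each of the 3 genes the window with the most matches is shown, or 1 of the overlapping pair, beside that of *Fkbp5*, in which neither motif was found. They are printed 5′ to 3′ on the strand of the gene, with each match in capitals, the palindrome of *Sgk1* including its spacer.
*Sgk1*, chr10:21993640-21993889, plus strand: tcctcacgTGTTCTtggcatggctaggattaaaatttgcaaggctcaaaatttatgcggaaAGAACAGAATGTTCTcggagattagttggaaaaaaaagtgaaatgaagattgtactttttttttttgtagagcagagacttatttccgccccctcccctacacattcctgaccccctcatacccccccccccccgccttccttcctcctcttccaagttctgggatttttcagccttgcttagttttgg
*Fam107a*, chr14:8309780-8310029, minus strand: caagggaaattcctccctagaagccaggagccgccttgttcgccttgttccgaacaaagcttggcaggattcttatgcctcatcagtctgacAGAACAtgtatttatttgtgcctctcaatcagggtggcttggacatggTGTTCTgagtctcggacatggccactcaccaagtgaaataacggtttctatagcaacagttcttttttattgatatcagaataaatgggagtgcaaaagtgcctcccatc
*Tsc22d3*, chrX:140600523-140600772, minus strand: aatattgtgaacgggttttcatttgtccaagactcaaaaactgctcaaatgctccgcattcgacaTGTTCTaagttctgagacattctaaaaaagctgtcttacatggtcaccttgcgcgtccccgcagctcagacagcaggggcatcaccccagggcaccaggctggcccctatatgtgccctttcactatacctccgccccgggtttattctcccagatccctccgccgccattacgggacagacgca
*Fkbp5*, chr17:28486150-28486399, minus strand: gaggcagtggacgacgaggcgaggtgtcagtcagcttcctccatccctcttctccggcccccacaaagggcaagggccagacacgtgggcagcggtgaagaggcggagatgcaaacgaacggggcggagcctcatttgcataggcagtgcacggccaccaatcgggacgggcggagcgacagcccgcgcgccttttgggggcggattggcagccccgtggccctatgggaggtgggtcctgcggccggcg
Counted from the start site to the first base of the match, this *Sgk1* window had the element at −242, −189 and −180, and those at −189 and −180 form the palindrome. The other *Sgk1* windows with the element had it at −195 and −13. The *Fam107a* window had it at −158 and −110, and the *Tsc22d3* window at −185. A match of letters is not a measured site of binding, and no match says only that these letters are not in that window.

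On the arrays, expression is given as log2 values normalised by the robust multiarray average method (RMA), so a difference of 1 is a doubling. Differences between strains are limma estimates on this scale with their standard error (SE), and p is adjusted by Benjamini-Hochberg over all 41345 probesets, with under 0.05 taken as passing. A nominal p is one below 0.05 before this adjustment. Array medians lay between 6.08 and 6.13. Markers of lung, such as surfactant and endothelial genes, were present in every mouse, and the log2 of the mean signal of the 10 measured markers ran from 12.47 to 12.55 in C57BL/6J, 12.51 to 12.60 in BcA86 and 12.53 to 12.54 in CSS12. In whole lung, fewer cells of a type and less RNA per cell cannot be told apart.

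All 10 genes were higher in CSS12 than in C57BL/6J in mean expression, and 9 of 10 were higher in BcA86. Of all probesets, 50.6% were higher in CSS12 and 48.6% in BcA86 by this count. Over each mouse, the mean deviation of the 10 genes from their C57BL/6J means was −0.13, 0.08 and 0.04 in the C57BL/6J mice, 0.44, 0.36 and 0.41 in the BcA86 mice, and 0.93, 1.14 and 1.06 in the CSS12 mice. The CSS12 mice were thus the highest and did not overlap with the others, and BcA86 lay between. Against C57BL/6J, 5 genes rose in CSS12 (*Fkbp5*, *Zbtb16*, *Fam107a*, *Map3k6* and *Hif3a*) and 0 fell, where 0.143% of all probesets were higher and 0.0774% lower. Of the 10 genes, 9, all but *Lcn2*, had no overlap between the CSS12 and C57BL/6J mice, where 7.56% of all probesets were higher without overlap. In BcA86, 0 of the 10 passed in limma, where 0.150% of all probesets were higher and 0.225% lower. By nominal p, 5 were higher and 1 lower in BcA86, beside 5.20% and 5.23% of all probesets. In CSS12 against C57BL/6J, 9 were higher and 0 lower by nominal p, beside 2273 and 2147 of the 41345 probesets. In CSS12 against BcA86, 6 were higher and 0 lower, beside 2465 and 2449 probesets. For the mean of both strains, 8 were higher and 0 lower, beside 2010 and 2002 probesets. Nominal counts of the gene lists below are to be read beside these counts of all probesets. Cyber-T, the test named in the methods, called more probesets higher in general. It was run here with the same adjustment of p and without a cutoff on fold change. The paper set such a cutoff and names no adjustment, so these counts do not follow its rule. Cyber-T called 4 of the 10 higher in BcA86 against C57BL/6J (1.32% of all probesets), 8 in CSS12 against C57BL/6J (1.40%), 7 in CSS12 against BcA86 (2.24%) and 6 for the mean of both strains (0.556%). For the mean of both strains, Cyber-T took the hyperresponsive mice as 1 group. The gap between BcA86 and CSS12 then counts as spread, unlike in limma. The share of all probesets that Cyber-T called lower was not counted, so its lower calls in the lists below stand without that share. Groups did not overlap for 6 genes in BcA86 (*Fkbp5*, *Zbtb16*, *Map3k6*, *Hif3a*, *Sgk1* and *Cdkn1a*), against 6.77% of probesets. The median difference of the 10 genes from C57BL/6J was 0.82 in CSS12 and 0.27 in BcA86, and that of all probesets was 0.00 in CSS12 and −0.00 in BcA86. Both comparisons use the same 3 C57BL/6J arrays.

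Directly compared, CSS12 exceeded BcA86 in 5 genes (*Fkbp5*, *Tsc22d3*, *Fam107a*, *Map3k6* and *Hif3a*), and 0 were lower, where 0.271% of all probesets were higher and 0.445% lower. Mice of the strains did not overlap for 7 genes, these and *Zbtb16* and *Mt2*, against 9.85% of probesets, and the median difference of the 10 genes was 0.81 beside 0.01 for all probesets. For the mean of both hyperresponsive strains against C57BL/6J, 4 genes passed, *Fkbp5*, *Zbtb16*, *Fam107a* and *Hif3a*, all higher, where 0.160% of all probesets were higher and 0.143% lower. In this contrast 6 genes had no overlap between the 6 hyperresponsive mice and the 3 C57BL/6J mice, the same genes that had none in BcA86 against C57BL/6J, and 2.35% of probesets were higher without overlap. With each array left out in turn, between 2 and 5 genes passed in CSS12 against C57BL/6J, between 2 and 5 in CSS12 against BcA86 and between 2 and 3 for the mean of both strains. The count for CSS12 against C57BL/6J was 3 without C57BL/6J replicate 2, CSS12 replicate 1 or CSS12 replicate 2, and 2 without CSS12 replicate 3. For CSS12 against BcA86 it was 2 without CSS12 replicate 2 or replicate 3. The share of all probesets that passed was not counted for these fits.

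**Figure D1:**
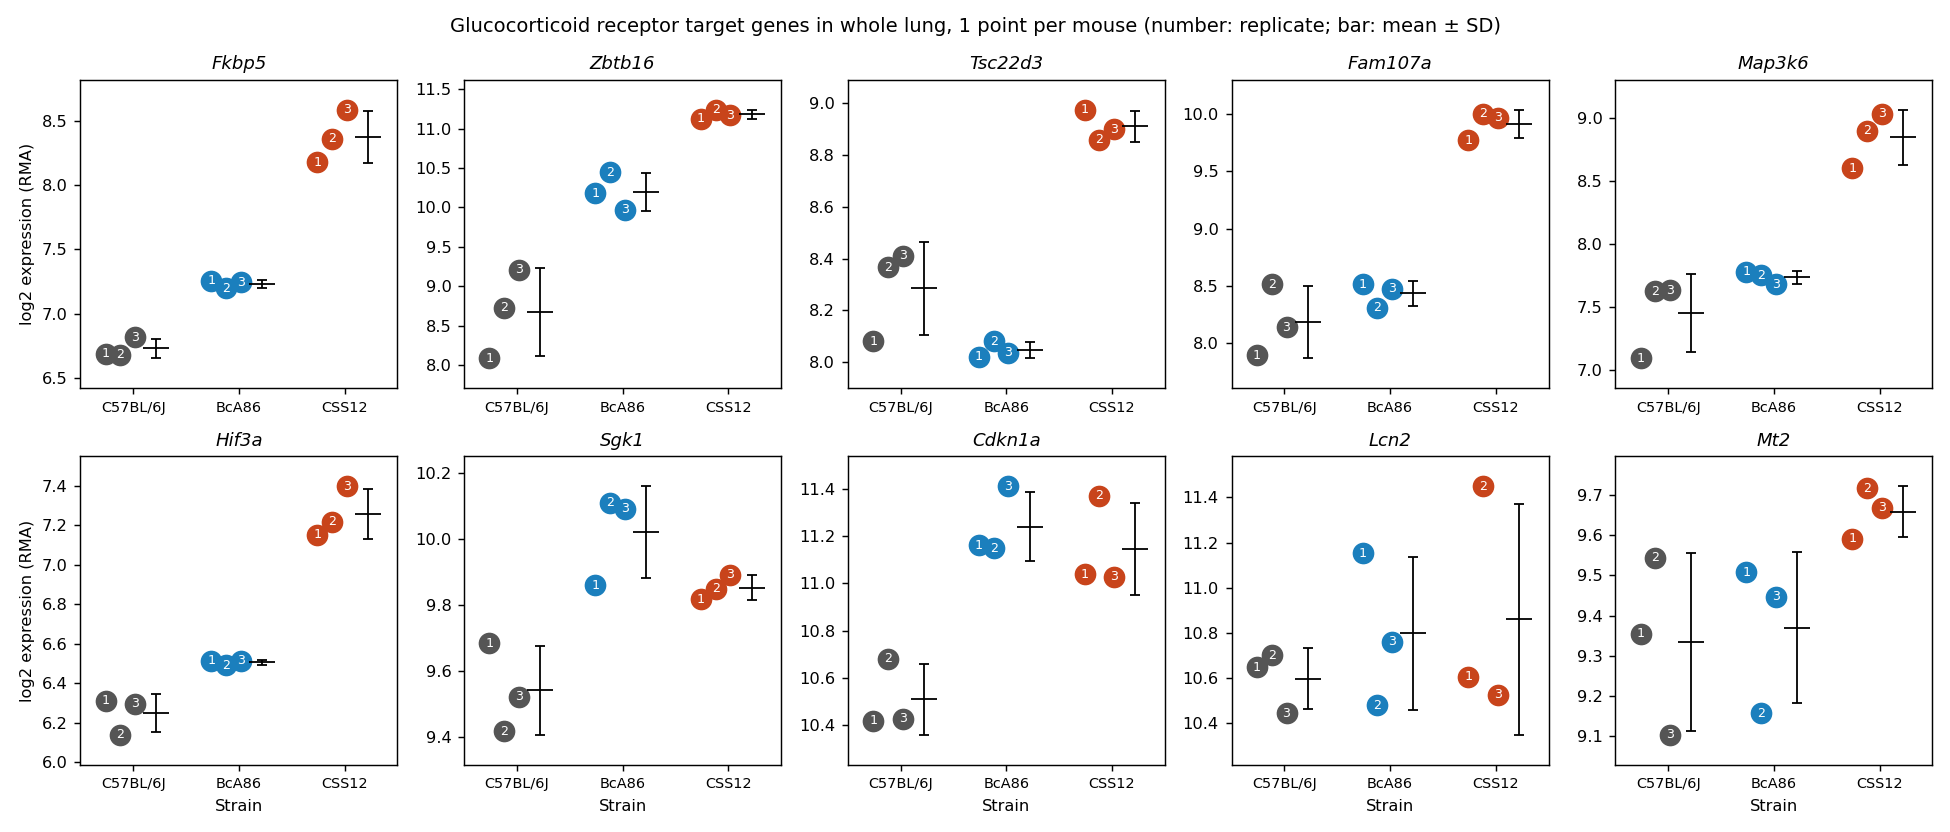
Log2 expression (RMA) of each of the 10 genes by strain, with 1 point per mouse numbered by replicate and a bar for the mean ± SD of 3 mice. Each panel has its own axis, which does not start at 0. The CSS12 mice stand above all others for *Fkbp5*, *Zbtb16*, *Tsc22d3*, *Fam107a*, *Map3k6*, *Hif3a* and *Mt2*, while the strains overlap for *Lcn2*.

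Among the regulators of the receptor itself, *Fkbp5* encodes a co-chaperone that lowers the receptor's affinity for its hormone and is induced by it in turn. Its log2 expression was 6.69, 6.68 and 6.82 in C57BL/6J replicates 1 to 3, 7.26, 7.20 and 7.25 in BcA86, and 8.18, 8.36 and 8.59 in CSS12. The 3 strains were separated without overlap, with BcA86 between. In CSS12 expression was 3.13-fold that of C57BL/6J (log2 difference 1.65, SE 0.10, adjusted p = 0.00722) and 2.21-fold that of BcA86 (1.14, SE 0.10, adjusted p = 0.00479). In BcA86 it was 1.42-fold that of C57BL/6J (0.50, SE 0.10, adjusted p = 0.123), which did not pass. The mean of both strains differed from C57BL/6J by 1.08 (SE 0.09, adjusted p = 0.00507). Both comparisons of CSS12 passed with each of the 9 arrays left out, and *Fkbp5* was the only one of the 10 for which both did.

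*Zbtb16* encodes a zinc finger repressor, also called PLZF, of lymphoid and progenitor cells and a strongly glucocorticoid-induced gene. It had log2 expression of 8.09, 8.72 and 9.21 in the C57BL/6J mice, 10.18, 10.44 and 9.97 in the BcA86 mice and 11.13, 11.24 and 11.17 in the CSS12 mice. The strains again formed 3 separate levels, and the C57BL/6J mice, with a range of 1.12, were spread far more widely than the CSS12 mice, with a range of 0.11. Expression in CSS12 was 5.69-fold that of C57BL/6J (log2 difference 2.51, SE 0.25, adjusted p = 0.0122). The BcA86 mean was 2.88-fold that of C57BL/6J (1.53, SE 0.25, adjusted p = 0.0662) and the CSS12 mean 1.98-fold that of BcA86 (0.98, SE 0.25, adjusted p = 0.139), and neither passed. For the mean of both strains the difference was 2.02 (SE 0.22, adjusted p = 0.0142), the highest estimate of all 41345 probesets in that contrast. In CSS12 against C57BL/6J the adjusted p was 0.0546 without C57BL/6J replicate 2, and 0.0677, 0.0683 and 0.0660 without CSS12 replicates 1, 2 and 3. In the mean of both strains it was 0.0643 without C57BL/6J replicate 2 and 0.0569 without CSS12 replicate 3. In BcA86 against C57BL/6J it was 0.0370 without C57BL/6J replicate 3, the highest mouse of that strain.

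*Tsc22d3* encodes GILZ, a leucine zipper protein that carries much of the anti-inflammatory action of glucocorticoids. It was the one gene of the 10 whose mean was lower in BcA86 than in C57BL/6J. Log2 expression was 8.08, 8.37 and 8.41 in C57BL/6J, 8.02, 8.08 and 8.04 in BcA86, and 8.98, 8.86 and 8.90 in CSS12. The BcA86 mice clustered at the level of C57BL/6J replicate 1, which equalled BcA86 replicate 2, and the CSS12 mice were above all others. The difference between CSS12 and BcA86 was 0.87 (1.82-fold, SE 0.09, adjusted p = 0.0105). It was lost without CSS12 replicate 3, at an adjusted p of 0.0587. Against C57BL/6J the difference was 0.63 in CSS12 (1.54-fold, SE 0.09, adjusted p = 0.0513) and −0.24 in BcA86 (SE 0.09, adjusted p = 0.422), and neither passed.

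Among the targets with roles in stress and signalling, *Fam107a* encodes an actin-associated protein of the stress response. Its values were 7.89, 8.52 and 8.14 in C57BL/6J, 8.52, 8.31 and 8.48 in BcA86, and 9.77, 10.001 and 9.97 in CSS12. BcA86 and C57BL/6J overlapped, and the CSS12 mice were separate from both. In CSS12 expression was 3.31-fold that of C57BL/6J (log2 difference 1.73, SE 0.15, adjusted p = 0.00858) and 2.78-fold that of BcA86 (1.48, SE 0.15, adjusted p = 0.00909), while BcA86 differed from C57BL/6J by 0.25 (SE 0.15, adjusted p = 0.617). The comparison of CSS12 with C57BL/6J was lost without CSS12 replicate 3 (adjusted p = 0.0584), and that with BcA86 without CSS12 replicate 2 (adjusted p = 0.0519) or replicate 3 (adjusted p = 0.0572). Over both strains together the difference was 0.99 (SE 0.13, adjusted p = 0.0296), which was lost with each array left out except C57BL/6J replicate 2, with an adjusted p of 0.0654 to 0.128. The dimmer probeset of *Fam107a* gave 5.16, 5.46 and 5.22 in C57BL/6J, 5.53, 5.64 and 5.28 in BcA86, and 6.12, 6.23 and 6.69 in CSS12. It ordered the strains in the same way, with CSS12 above all other mice. Its differences did not pass, at 1.07 for CSS12 against C57BL/6J (SE 0.16, adjusted p = 0.0628) and 0.86 against BcA86 (SE 0.16, adjusted p = 0.0604).

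*Map3k6* encodes a stress-activated kinase of the ASK family. Log2 expression was 7.10, 7.63 and 7.64 in C57BL/6J, 7.78, 7.75 and 7.68 in BcA86, and 8.61, 8.90 and 9.04 in CSS12. The BcA86 mice lay just above the C57BL/6J mice and the CSS12 mice well above both. The CSS12 mean was 2.63-fold that of C57BL/6J (log2 difference 1.39, SE 0.16, adjusted p = 0.0208) and 2.16-fold that of BcA86 (1.11, SE 0.16, adjusted p = 0.0316). Neither comparison was stable, as the one with C57BL/6J passed only without C57BL/6J replicate 1 among the 9 fits with an array left out (adjusted p of 0.0521 to 0.106 in the other 8), and the one with BcA86 only without C57BL/6J replicate 1 or CSS12 replicate 1. BcA86 differed from C57BL/6J by 0.29 (SE 0.16, adjusted p = 0.594).

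*Hif3a* encodes an alpha subunit of the hypoxia-inducible factors, some of whose isoforms oppose the others. Values were 6.31, 6.14 and 6.30 in C57BL/6J, 6.51, 6.49 and 6.51 in BcA86, and 7.15, 7.22 and 7.40 in CSS12. The 3 strains formed separate levels in the same order as for *Fkbp5*. The CSS12 mean was 2.01-fold that of C57BL/6J (log2 difference 1.01, SE 0.08, adjusted p = 0.00767), which passed with every array left out. It was 1.68-fold that of BcA86 (0.75, SE 0.08, adjusted p = 0.0106), a difference that was lost without CSS12 replicate 2 at an adjusted p of 0.0504. BcA86 differed from C57BL/6J by 0.26 (SE 0.08, adjusted p = 0.321). Over both strains the mean difference was 0.63 (SE 0.07, adjusted p = 0.0145), which was lost without C57BL/6J replicate 2 or 3 or BcA86 replicate 2 or 3, at an adjusted p of 0.0513 to 0.0629. It was also lost with Cyber-T, which took both strains as 1 group, at an adjusted p of 0.0508.

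*Sgk1* encodes a kinase that raises sodium uptake by epithelial channels and carried the palindrome shown above. Its log2 expression was 9.68, 9.42 and 9.52 in C57BL/6J, 9.86, 10.11 and 10.09 in BcA86, and 9.82, 9.85 and 9.89 in CSS12. Both hyperresponsive strains were above all C57BL/6J mice, but here the BcA86 mean was the higher. Differences from C57BL/6J were 0.48 in BcA86 (1.40-fold, SE 0.09, adjusted p = 0.112) and 0.31 in CSS12 (1.24-fold, SE 0.09, adjusted p = 0.309), and CSS12 differed from BcA86 by −0.17 (SE 0.09, adjusted p = 0.548).

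*Cdkn1a*, which encodes the cell cycle inhibitor p21 and is a target of p53 as well, had the same shape. The values were 10.42, 10.68 and 10.43 in C57BL/6J, 11.16, 11.15 and 11.41 in BcA86, and 11.04, 11.37 and 11.03 in CSS12. Every mouse of BcA86 and CSS12 was above every C57BL/6J mouse, and the former strains overlapped. The differences from C57BL/6J were 0.73 in BcA86 (1.66-fold, SE 0.13, adjusted p = 0.0747) and 0.64 in CSS12 (1.55-fold, SE 0.13, adjusted p = 0.132), and that between CSS12 and BcA86 was −0.09 (SE 0.13, adjusted p = 0.830). None passed in limma.

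*Mt2* encodes a metallothionein, induced by zinc as well as by glucocorticoids. Expression was 9.36, 9.54 and 9.10 in C57BL/6J, 9.51, 9.16 and 9.45 in BcA86, and 9.59, 9.72 and 9.67 in CSS12. The CSS12 mice were the highest by a small margin, and the other strains overlapped. No difference passed, at 0.32 for CSS12 (1.25-fold, SE 0.13, adjusted p = 0.430) and 0.04 for BcA86 (SE 0.13, adjusted p = 0.951) against C57BL/6J, and 0.29 for CSS12 against BcA86 (SE 0.13, adjusted p = 0.438). *Mt1*, the neighbouring metallothionein, differed from C57BL/6J by 0.07 in CSS12 and −0.22 in BcA86 (SE 0.12 for both), which did not pass either. It was named after its values were seen.

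*Lcn2* encodes a siderophore-binding lipocalin of neutrophils and secretory epithelium. Log2 expression was 10.65, 10.70 and 10.44 in C57BL/6J, 11.15, 10.48 and 10.76 in BcA86, and 10.61, 11.45 and 10.53 in CSS12. The strains overlapped, and a single mouse stood apart in BcA86, replicate 1, and in CSS12, replicate 2. The differences were 0.20 for BcA86 (SE 0.26, adjusted p = 0.830) and 0.26 for CSS12 (SE 0.26, adjusted p = 0.764) against C57BL/6J and 0.06 between CSS12 and BcA86 (SE 0.26, adjusted p = 0.953). Without CSS12 replicate 2 the difference of CSS12 from C57BL/6J turned to −0.03. Of 9 measured airway epithelial markers, the same mouse was the highest of its strain for 7 in BcA86 and 5 in CSS12. These 5 were *Scgb3a1*, *Foxj1*, *Muc5b*, *Agr2* and *Tff2*, named for this pattern after their values were seen. *Scgb1a1* and *Cyp2f2*, the club cell genes, were highest in replicate 3 of both strains, and *Bpifa1* and *Scgb3a2* in replicate 3 of CSS12. Of 15 neutrophil markers, the mouse was the highest for 4 in BcA86 and 3 in CSS12, and *Ltf* alone for both. C57BL/6J differed, as its mouse highest for *Lcn2*, replicate 2, was the highest for 13 of the 15 neutrophil markers. The same C57BL/6J mouse was the highest for 6 of the 9 airway epithelial markers. *Muc5b*, an airway mucin, was 9.49, 9.83 and 7.58 in C57BL/6J, 10.19, 7.96 and 9.49 in BcA86, and 9.17, 11.20 and 10.18 in CSS12. *Agr2*, which folds mucins, was 6.37, 6.67 and 5.42 in C57BL/6J, 7.43, 5.75 and 6.29 in BcA86, and 6.51, 8.87 and 6.83 in CSS12. *Ltf*, lactoferrin of neutrophil granules and airway glands, reached 9.13 in BcA86 replicate 1 and 9.18 in CSS12 replicate 2, and the other 7 mice had 6.32 to 7.996. In C57BL/6J replicate 2 was the highest and replicate 3 the lowest for *Lcn2*, *Muc5b*, *Agr2* and *Ltf*. *S100a8*, a neutrophil gene, had the same order in C57BL/6J, with 7.83, 9.16 and 7.42. It did not follow them in CSS12, with 5.88 in replicate 2, the lowest of the 9 mice. In BcA86 it was 8.42, 8.32 and 8.49, so replicate 1 was not the highest. *Ltf* was chosen after its values were seen, and what sets the *Lcn2* level was not tested.

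**Figure D2:**
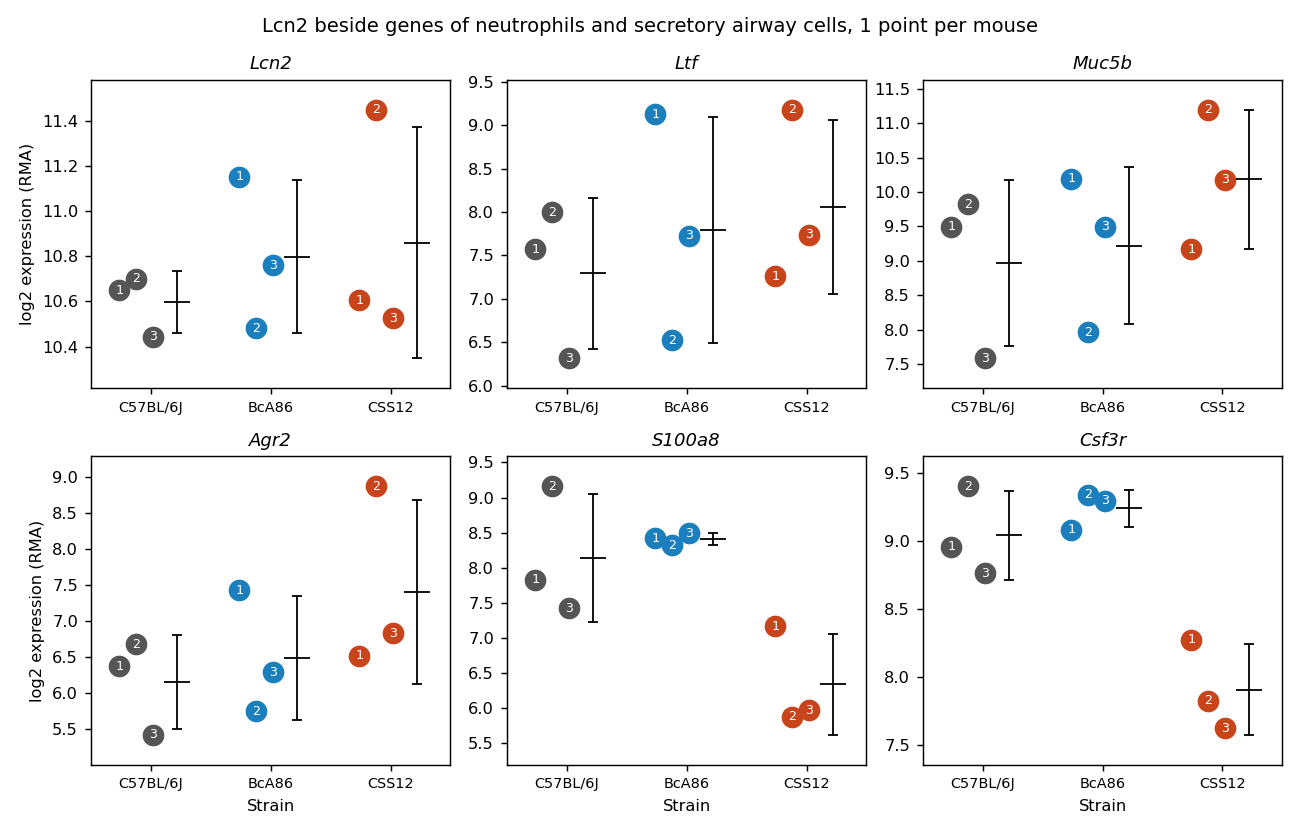
Log2 expression (RMA) of *Lcn2* beside genes of secretory airway cells and neutrophils by strain, with 1 point per mouse numbered by replicate and a bar for the mean ± SD of 3 mice. Axes differ between panels and do not start at 0. BcA86 replicate 1 and CSS12 replicate 2 are the highest of their strain for *Lcn2*, *Ltf*, *Muc5b* and *Agr2*, panels chosen for this after their values were seen, and not for *S100a8* or *Csf3r*. *Scgb1a1* and *Cyp2f2*, not drawn, do not share the pattern.

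**Figure D3:**
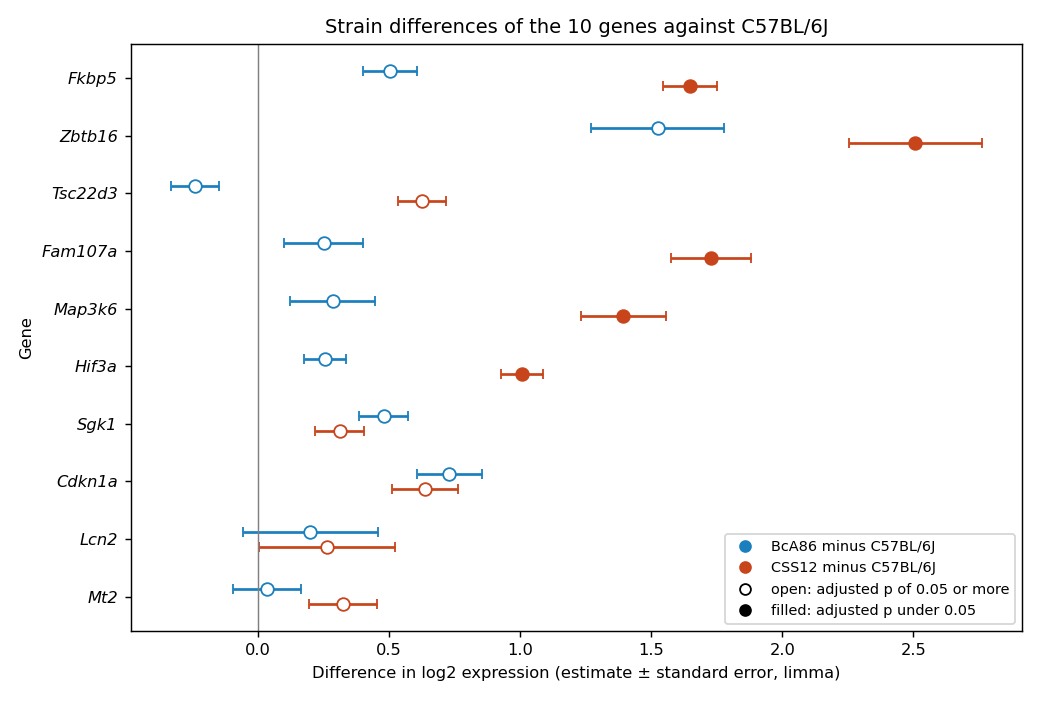
Difference in log2 expression from C57BL/6J for each of the 10 genes, as limma estimate ± standard error, with BcA86 in blue and CSS12 in red and filled points at an adjusted p under 0.05. The 5 filled points are all of CSS12, and *Sgk1* and *Cdkn1a* are the genes with the BcA86 estimate above that of CSS12.

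The receptor and its machinery, a list of 17 genes of which 14 were measured, gave 0 calls in limma in each of the 4 comparisons. In BcA86 all 14 had a lower mean than in C57BL/6J, with a median of −0.11, and without C57BL/6J replicate 1 limma called 2 of them lower. In CSS12 9 of 14 were lower, with a median of −0.06. *Nr3c1*, the receptor gene, was 10.18, 10.20 and 10.29 in C57BL/6J, 10.14, 10.21 and 10.15 in BcA86, and 10.19, 10.20 and 10.20 in CSS12, so its levels overlapped between strains. It was named after its values were seen. The largest estimates for the mean of both strains were those of *Stip1* (−0.42, SE 0.22, adjusted p = 0.588) and *Fkbp4* (−0.37, SE 0.11, adjusted p = 0.292), co-chaperones of heat shock protein 90. By nominal p, 4 genes were lower and 0 higher in BcA86 against C57BL/6J, and CSS12 had 1 higher and 0 lower. Cyber-T called 2 lower in BcA86, 0 in CSS12, 2 higher in CSS12 against BcA86 and 0 for the mean of both.

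Among 31 other genes induced by glucocorticoids, all measured, 3 rose and 0 fell in CSS12 against C57BL/6J, with a median difference of 0.16 and 22 of 31 above 0. They were *Angptl4*, an inhibitor of lipoprotein lipase (1.40, SE 0.19, adjusted p = 0.0401), *Sult1a1*, a sulfotransferase (0.76, SE 0.07, adjusted p = 0.00858), and *Klf9*, a transcription factor (0.57, SE 0.07, adjusted p = 0.0280). *Angptl4* was 7.18, 7.64 and 7.40 in C57BL/6J, 8.14, 8.13 and 8.76 in BcA86, and 8.74, 8.99 and 8.69 in CSS12. The hyperresponsive strains overlapped with each other and were both above C57BL/6J. *Klf9* was 10.52, 10.66 and 10.70 in C57BL/6J, 10.74, 10.64 and 10.69 in BcA86, and 11.20, 11.12 and 11.27 in CSS12, where only the CSS12 mice stood apart. In BcA86, 0 of the 31 passed against C57BL/6J, with a median of −0.08 (3 higher and 3 lower by nominal p, 3 higher and 2 lower by Cyber-T). Against BcA86, 4 genes rose in CSS12, *Per1*, *Klf9*, *Glul* and *Sult1a1*, and 0 fell. There 26 of 31 were above 0, beside 53.8% of all probesets, and the median was 0.28. *Angptl4* and *Sult1a1* rose in the mean of both strains, by 1.17 (SE 0.17, adjusted p = 0.0410) and 0.56 (SE 0.06, adjusted p = 0.0116). *Klf9*, *Per1* and *Glul* were named after their values were seen. These calls depended on single arrays, as with each array left out between 0 and 2 of the 31 passed in CSS12 against C57BL/6J, 0 of them without CSS12 replicate 3, and between 0 and 3 in CSS12 against BcA86, 3 only without C57BL/6J replicate 1. With Cyber-T, 8 and 13 genes were higher in these comparisons and 0 lower. Of 20 inflammatory genes that glucocorticoids repress, 0 passed in any comparison in limma. Medians were −0.06 in CSS12 and −0.04 in BcA86 against C57BL/6J, and by nominal p 2 were higher and 3 lower in CSS12 and 2 higher and 1 lower in BcA86. By the same rule, 2273 of all 41345 probesets were higher in CSS12 and 2152 in BcA86, with 2147 and 2164 lower. In CSS12, 1 was higher and 2 lower by Cyber-T, and in BcA86, 2 and 2. The largest estimates for the mean of both strains were −0.68 for *Il1b* (SE 0.33) and 0.68 for *Ccl3* (SE 0.35).

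**Figure D4:**
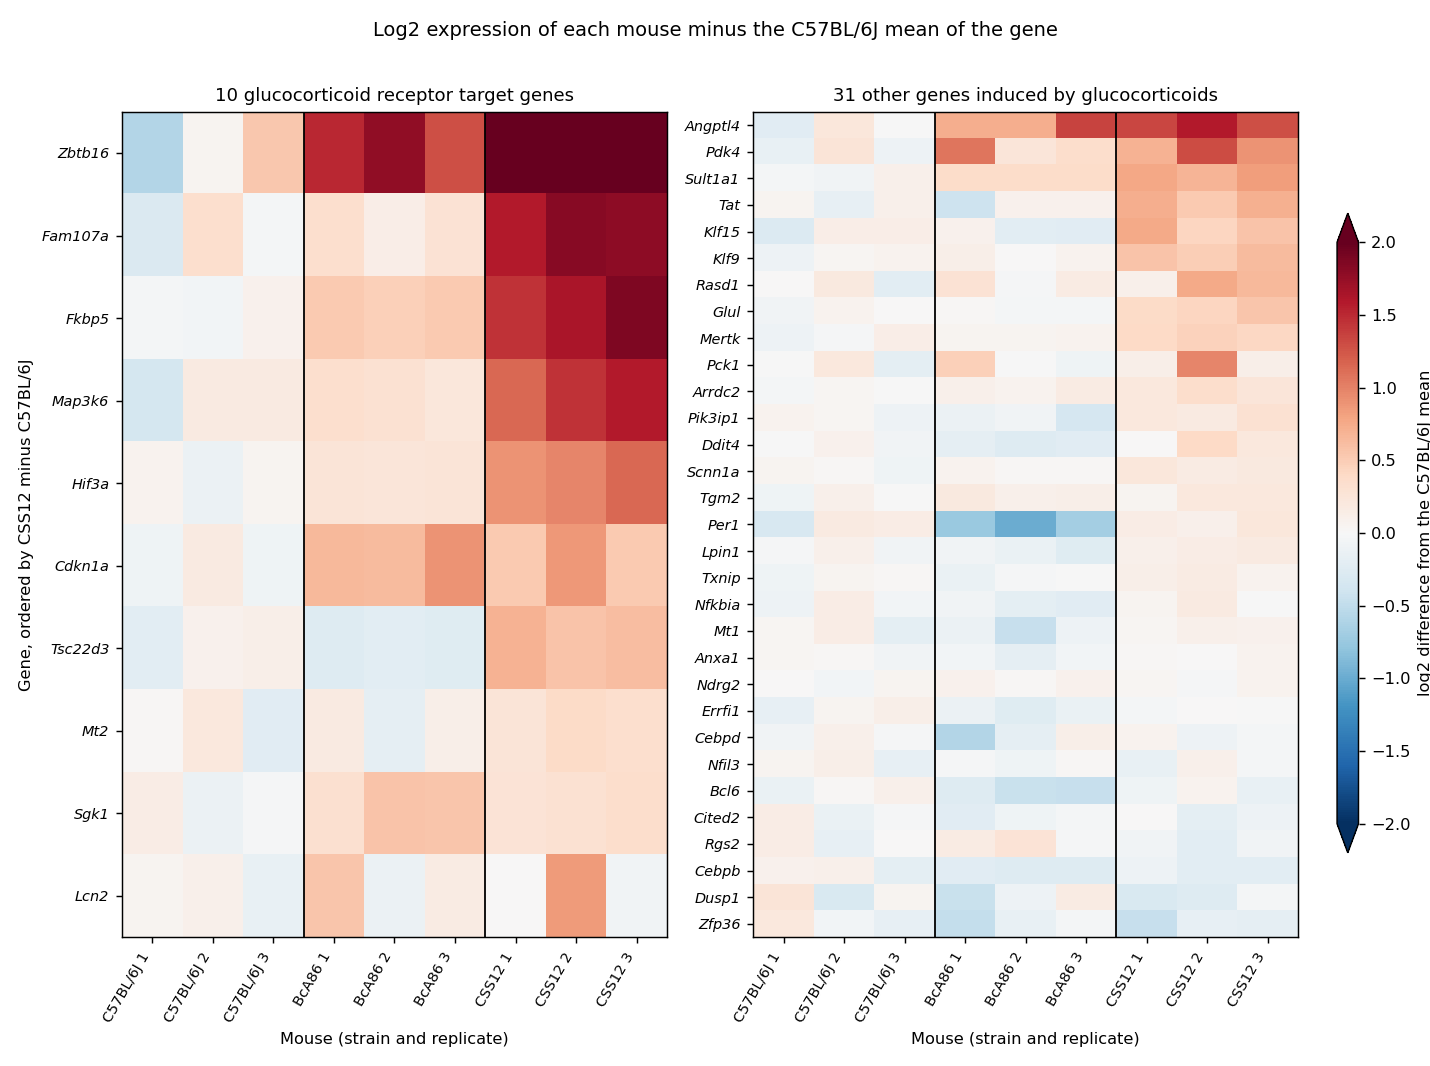
Log2 expression of each mouse minus the C57BL/6J mean of the gene for the 10 genes (left) and the 31 other glucocorticoid-induced genes (right), with 1 column per mouse, genes ordered by the CSS12 difference, and red for higher and blue for lower expression (the colour scale ends at a difference of 2 in either direction). In CSS12, 9 of the 10 genes are red in every mouse and *Lcn2* in replicate 2. In BcA86 *Tsc22d3* and *Per1* are blue, and 19 of the 31 other genes, *Per1* among them, have a mean below that of C57BL/6J.

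Other inputs of these genes were read from lists of their own. Of 14 measured p53 targets other than *Cdkn1a*, 0 passed in any comparison in limma, with medians of −0.02 in BcA86 and 0.07 in CSS12 against C57BL/6J. By nominal p, BcA86 had 1 higher and 1 lower and CSS12 had 2 higher and 3 lower, while the calls of Cyber-T were 0 in BcA86 and 1, higher, in CSS12. The largest estimates for the mean of both strains were −0.47 for *Tnfrsf10b* (SE 0.19) and 0.36 for *Trp53inp1* (SE 0.06, adjusted p = 0.0905). Hypoxia genes and HIF subunits other than *Hif3a* gave 0 calls of 15 with limma, with medians of −0.03 in BcA86 and 0.03 in CSS12, and 0 calls in these comparisons with Cyber-T. By nominal p, BcA86 had 1 higher and 1 lower and CSS12 had 3 higher. In CSS12 against BcA86, 11 of these 15 genes were above 0, beside 53.8% of all probesets, with 4 higher and 1 lower by nominal p and 2 higher by Cyber-T. *Bnip3* and *Hk2*, a mitophagy gene and a hexokinase, had the largest estimates for the mean of both strains, 0.17 each (SE 0.06 and 0.07). Of 7 measured metal response genes other than *Mt2*, 0 passed with limma or with Cyber-T in any comparison, and by nominal p 1 was lower in BcA86 and 0 differed in CSS12. The largest estimates for the mean of both strains were those of *Gclc* (−0.25, SE 0.10) and *Hmox1* (−0.18, SE 0.13).

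Other gene groups moved with strain beside the 10 genes, and their part in these results was not tested. Clock genes matter here because corticosterone follows the clock. Of 16 measured clock genes and outputs, 2 rose and 3 fell in BcA86 against C57BL/6J, with a median of −0.60. By nominal p 3 were higher and 10 lower there, and by Cyber-T 3 and 9. In CSS12 0 passed in limma, with a median of 0.02, and by nominal p as well as by Cyber-T 1 was higher and 1 lower. With an array left out, 0 to 2 clock genes were higher and 1 to 2 lower in BcA86, 0 higher only without C57BL/6J replicate 3. For the mean of both strains only *Cry1*, a repressor of the clock, passed (−0.62, SE 0.06, adjusted p = 0.00728). *Arntl*, its activator, chosen after its values were seen, was 6.66, 6.91 and 6.80 in C57BL/6J, 8.19, 8.32 and 8.88 in BcA86, and 6.90, 7.28 and 6.96 in CSS12, so BcA86 stood apart from the other strains. *Per1*, a gene of both the clock and the glucocorticoid response, was 10.39, 10.89 and 10.85 in C57BL/6J, 9.97, 9.71 and 10.02 in BcA86, and 10.85, 10.80 and 10.94 in CSS12. Between CSS12 and BcA86, where 5 of the 10 genes rose, 3 clock genes rose (*Per1*, *Cry1* and *Ciart*, the last chosen after its values were seen) and *Arntl* fell. By nominal p as well as by Cyber-T, 11 were higher and 2 lower in this comparison. With an array left out, 0 to 3 clock genes were higher and 0 to 1 lower, and 0 passed without CSS12 replicate 1, 2 or 3.

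All 11 measured heat shock chaperones had lower means in both BcA86 and CSS12. *Hspa8* and *Hsp90aa1*, named here for this overlap, are also in the list of the receptor and its machinery. The counts of these lists are therefore not independent. *Hspa1a*, an inducible chaperone, was 10.69, 11.66 and 10.96 in C57BL/6J, 8.81, 8.05 and 8.09 in BcA86, and 8.95, 8.77 and 8.85 in CSS12. Every mouse of BcA86 and CSS12 was below every C57BL/6J mouse, and BcA86 and CSS12 overlapped. For the mean of both strains, *Hspa1a* fell by 2.51 (SE 0.24, adjusted p = 0.00813) and *Hspa1b* fell by 2.39 (SE 0.34, adjusted p = 0.0401), and as their sequences are nearly identical, probes of either may bind both. With an array left out 1 to 3 chaperones fell in this contrast, *Hspa1a* in every fit. Of 15 measured immediate early genes, 12 had lower means in BcA86 than in C57BL/6J and 14 in CSS12. In BcA86 1 fell, *Nr4a2*, a count that was 2 without C57BL/6J replicate 3 and 0 with any other array left out, and 0 passed in CSS12 or for the mean of both strains in limma. By nominal p, 7 were lower and 0 higher in CSS12 and 8 lower and 0 higher in the mean, and Cyber-T called 5 lower in CSS12 and 3 lower in the mean. Their largest estimates for the mean were −1.39 for *Nr4a1* (SE 0.27, adjusted p = 0.115) and −0.92 for *Atf3* (SE 0.24, adjusted p = 0.253). *Nr4a2* was named after its values were seen.

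Neutrophil markers had lower means in CSS12 than in C57BL/6J for 14 of 15 measured. Against BcA86 2 fell in CSS12, *Csf3r* and *Ngp*, chosen after their values were seen, and with an array left out 0 to 4, the highest count without C57BL/6J replicate 2. Against C57BL/6J 0 passed in limma, while 8 were lower and 0 higher by nominal p, 7 were lower by Cyber-T, and the median was −0.75. The log2 of their mean signal was 7.31 to 8.29 in C57BL/6J, 7.82 to 7.89 in BcA86 and 6.70 to 7.05 in CSS12, so the CSS12 mice were lowest. In BcA86 the median was 0.10, and 0 passed, with 1 higher by nominal p and 0 by Cyber-T. The largest estimates for the mean of both strains were those of *Retnlg* (−0.76, SE 0.31) and *S100a8* (−0.76, SE 0.41). Of the lung markers 0 of 10 passed in limma, where BcA86 had 2 higher by nominal p and 1 by Cyber-T against C57BL/6J, and *Cdh5* (0.22, SE 0.05) and *Pecam1* (0.19, SE 0.07), both endothelial, had the largest estimates for the mean. Airway epithelial markers gave 0 calls of 9 in limma and 0 by nominal p, and 1 lower by Cyber-T in CSS12 against BcA86, with a mean signal of 11.30 to 11.68 in C57BL/6J, 11.33 to 11.81 in BcA86 and 11.39 to 11.74 in CSS12 as log2 values. Markers of tissue that can come along with lung, 8 of adipose tissue, 10 of skeletal muscle, 8 of heart and 7 of thymus and T cells, gave 0 calls in limma and at most 2 higher and 2 lower by nominal p in a comparison, and Cyber-T called 1 adipose marker higher and 1 skeletal muscle marker lower in BcA86 against C57BL/6J and 0 of them in the other comparisons. Their largest estimates for the mean of both strains were 0.47 for *Lipe*, −0.39 for *Retn*, −0.51 for *Atp2a1*, 0.29 for *Ckm*, 0.23 for *Myh6*, −0.22 for *Myl7*, −0.37 for *Cd8b1* and −0.30 for *Cd4*. All 8 heart markers had lower means in CSS12 than in BcA86, with a median of −0.23. All 7 thymus and T cell markers were lower for the mean of both strains against C57BL/6J, with a median of −0.28. Adipose and skeletal muscle markers went both ways in these comparisons.

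Over the 9 mice, the pattern of *Fkbp5* was most like that of *Hif3a* among the 10 genes, with a Pearson r of 0.994. The r was 0.969 for *Map3k6*, 0.960 for *Fam107a*, 0.905 for *Zbtb16*, 0.805 for *Tsc22d3*, 0.694 for *Mt2*, 0.586 for *Cdkn1a*, 0.415 for *Sgk1* and 0.289 for *Lcn2*. Among all other genes with their own symbol, the highest were *Rin2*, an exchange factor of endosomes, at 0.994, *Sgms1*, a sphingomyelin synthase, at 0.981, *Sptan1*, a spectrin, and *Atp7b*, a copper transporter, at 0.977 each, and *Mxd4*, a repressor of the Myc network, at 0.976. *Rin2* was 10.40, 10.38 and 10.49 in C57BL/6J, 10.60, 10.59 and 10.60 in BcA86, and 10.96, 10.97 and 11.01 in CSS12, so it formed the same 3 levels as *Fkbp5* over a smaller range. These correlations run over 3 groups of mice whose means differ, on arrays normalised together, and are a description.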

How the data were processed

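Whole lung RNA of 9 mice was hybridised to Affymetrix Gene 2.0 ST arrays, 1 per mouse, and per the labels all RNA was extracted together. The authors normalised the intensities by RMA in FlexArray and deposited log2 values, which were used as they are. RMA shrinks differences of dim probesets. Of 41345 probesets, 23521 have 1 gene symbol in the platform annotation, 1820 several and 16004 none, and the brightest probeset of a gene was used. Strain differences were estimated with limma 3.58.1 (R 4.3.3) from 1 fit of all 9 arrays without a block, with Benjamini-Hochberg adjustment over all probesets. The precision is limited by the number of arrays. The members and the 16 lists were chosen with earlier results of these data known. Named are the 10 members, up to 4 passing genes of each list with the largest change for the mean of both strains or else its 2 largest, and the 5 genes most like *Fkbp5*, while any other gene named is marked where it appears. The alternatives were Cyber-T (window 101, prior weight 10), trended and robust variances, the compared strains alone, a replicate block, dim probesets left out, centred arrays, array weights, the mean over the probesets of a gene, and each array left out. Code was tested on simulated data. Mice of a strain are separate animals. The authors' quantitative RT-PCR and QTL data were not analysed here.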

Additional observations from a re-analysis of the deposited data

How the results depend on the processing

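Of the 40 estimates of single genes, each under 17 alternatives, 595 kept their direction and side of the threshold, 54 lost and 25 gained significance and 6 changed sign. The number of the 10 genes that passed was 0 in BcA86 against C57BL/6J, and 4 with Cyber-T, 2 with trended and robust variances, 3 with dim probesets left out and 0 to 1 with an array left out. In CSS12 against C57BL/6J it was 5, and 8 with Cyber-T, 1 with the compared strains alone and 2 to 5 with an array left out. In CSS12 against BcA86 it was 5, and 7 with Cyber-T, 3 with the compared strains alone and 2 to 5 with an array left out. For the mean of both strains it was 4, and 6 with Cyber-T, which lost *Hif3a*, 0 with the compared strains alone and 2 to 3 with an array left out. In this contrast both Cyber-T and the compared strains alone take the 6 hyperresponsive mice as 1 group. Apart from Cyber-T, the share of all probesets that passed was not counted under the alternatives. A change in these counts therefore cannot be told apart from a change over all probesets.

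Correlations of the deviations of same-numbered mice ran from −0.107 to 0.147, and those of differently numbered mice from −0.212 to 0.133. The highest of all was that of a same-numbered pair. As the ranges overlap, they cannot decide whether the numbers pair the mice. With the replicate block, 3 genes passed in CSS12 against C57BL/6J and 1 for the mean of both strains. *Zbtb16* and *Map3k6* no longer passed in the former and *Zbtb16*, *Fam107a* and *Hif3a* in the latter.

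The signs that changed were of small differences. With an array left out, *Mt2* in BcA86 against C57BL/6J ran from −0.0792 to 0.143, *Lcn2* in CSS12 against C57BL/6J from −0.0318 to 0.430, and *Lcn2* in CSS12 against BcA86 from −0.232 to 0.240, with the lowest values without C57BL/6J replicate 3, CSS12 replicate 2 and CSS12 replicate 2. The cause was not tested. *Fkbp5* passed in CSS12 against C57BL/6J and against BcA86 under all 17 alternatives, with an adjusted p of at most 0.0444 and 0.0423.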
